A study of Arabidopsis thaliana with 4 samples.

Results

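The transcripts described here form a group, chosen by gene name, of organelle RNA-processing and editing factors of Arabidopsis thaliana. They come from nuclear genes, most of whose proteins act on the RNA of chloroplasts and mitochondria. They were taken as the probe sets of the Affymetrix ATH1 array whose single gene symbol began with OTP, MEF, CRR, SLO, RPF, PPR, MORF, PTAC or SIG followed by a number. For a gene with several probe sets the rule kept that with the highest mean log2 signal, but no choice was needed. It gave 16 genes with 1 probe set each, of 22746 probe sets tested. The rule was set with earlier results of these data known. Among RefSeq genes, 64 symbols fit the same rule, so 48 further genes of this kind had no probe set named for them alone and were not analysed here. No MORF, PTAC, SIG, SLO or RPF gene was among the 16. Total RNA came from the aerial tissue of 14-d-old soil-grown plants, from 2 vip3 arrays and 2 wild-type (WT) arrays. The vip3 plants lack VIP3, a subunit of the plant Paf1 complex (Paf1C), which accompanies elongating RNA polymerase II. The study's methods name the allele vip3-1, and its account of the chromatin maps calls the vip3 plants mapped there homozygous for a null allele. Per the labels each replicate was made of 3 separately derived samples of more than 100 plants each. The spread between arrays of a genotype is thus that between pools, and in whole aerial tissue fewer expressing cells and less RNA per cell cannot be told apart.

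Chloroplast and mitochondrial transcripts of plants mature through RNA editing (C-to-U changes), intron splicing, cleavage and trimming of their ends. Most of the sequence-specific factors are pentatricopeptide repeat (PPR) proteins, which bind single-stranded RNA through tandem repeats that each recognise a base. They are made in the cytosol and imported, so their own mRNAs are products of RNA polymerase II. The OTP genes were named for defects in organelle transcript processing, and the MEF genes for mitochondrial editing. The CRR genes were named for mutants that lose activity of the chloroplast NADH dehydrogenase-like (NDH) complex, and they include both PPR editing factors and proteins that assemble the complex itself. By known role the 16 genes comprised 8 chloroplast editing factors, 1 chloroplast splicing factor, 3 mitochondrial editing factors, 2 mitochondrial factors of splicing or of ribosomes, and 2 NDH assembly factors that do not process RNA.

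Values are MAS5 signals, brightness on a linear scale that the authors' software had set to a common target, with array medians between 172.1 and 175.7. The correlation of log2 signals across probe sets was 0.95 within vip3 and 0.953 within WT, and it ran from 0.941 to 0.946 for pairs of arrays that differed in genotype. The ratio of 3′ to 5′ signal of the GAPDH control was between 1.51 and 1.81 on the 4 arrays. The 4 measured markers of green tissue (RCA, PSAE-1, LHCB4.2 and LHCB4.1) gave signals between 16687 and 24728 on every array. Of 5 listed root markers 2 were measured. PYK10 had 2687 and 3228 in vip3 against 4739 and 5739 in WT (limma adjusted p = 0.00616), and EXPA7 had 27.2 and 42.8 in vip3 against 57.5 and 40.2 in WT. AMS, the single measured anther marker, was at 17.9 or below, and WRKY53, a senescence marker, had 231.2 and 132.8 in vip3 against 87.5 and 204.7 in WT. The part of these tissues in the results below was not tested.

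Transcripts of 2 of the 16 factors differed between the genotypes, and they did so in opposite directions. CRR21, an editing factor of the ndhD transcript, was 1.38-fold higher in vip3, and OTP81, an editing factor of the rps12 intron, was 2.48-fold lower. The other 14 did not pass. Passing meant an adjusted p below 0.05 in limma, which 9.8% of all probe sets reached, 4.73% higher and 5.07% lower in vip3. A count of 2 in 16 is near that background. Without adjustment 5 of the 16 had p under 0.05, 2 higher and 3 lower, where 23.7% of all probe sets did. The study's methods asked for an unadjusted p below 0.001 together with a 2-fold difference, which 1.56% of all probe sets and 0 of the 16 met.

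**Figure D1:**
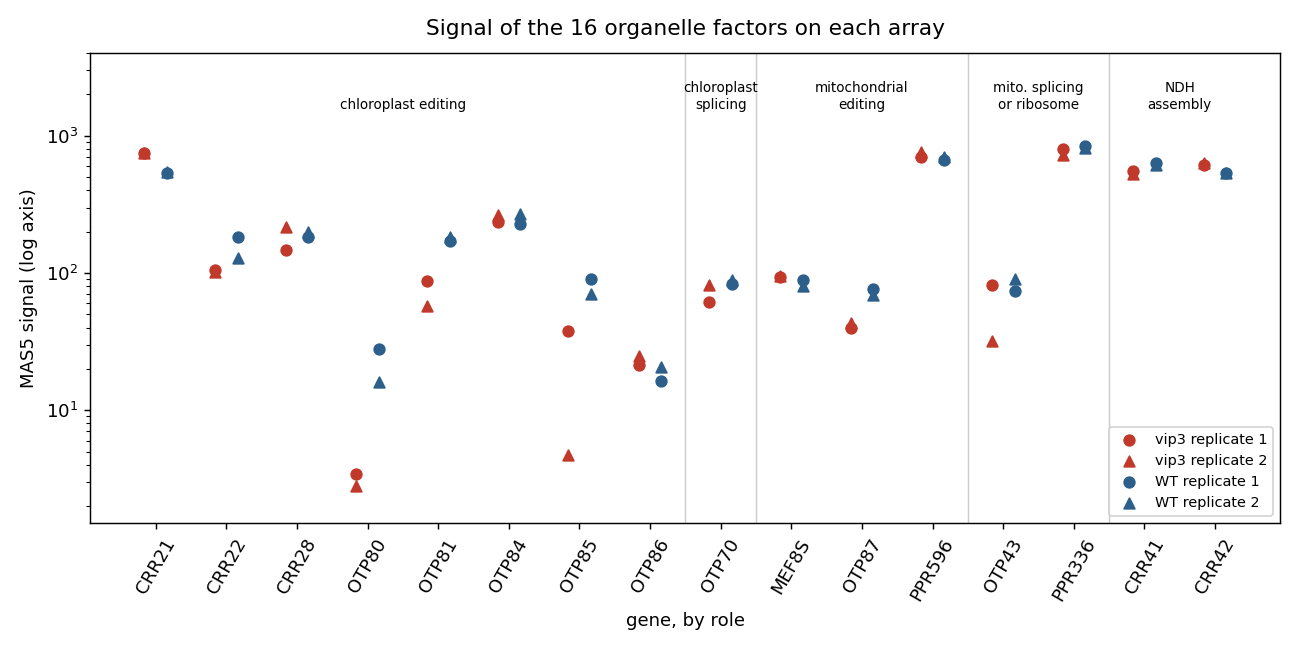
MAS5 signal (log axis) of the 16 organelle factors on each of the 4 arrays, vip3 left of WT, with circles for replicate 1 and triangles for replicate 2. CRR21 lies at 744.8 and 750.1 in vip3, above 535.4 and 548.9 in WT, and both vip3 signals of OTP81 lie below both WT signals.

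CRR21 (AT5G55740) is a PPR protein needed to edit the ndhD transcript, which encodes a subunit of the NDH complex. Its signals were 750.1 and 744.8 on the vip3 arrays and 535.4 and 548.9 on the WT arrays. The arrays of a genotype lay close together, at a ratio of 1.01 in vip3 and 1.03 in WT, and the genotypes did not overlap. The log2 fold change was 0.46 ± 0.08 (SE), with a 95% interval from 0.27 to 0.66 and an adjusted p of 0.0145 in limma. The interval of the fold, from 1.2 to 1.58, lay below a 2-fold change. Its adjusted p was 0.104 without vip3 replicate 1, 0.102 without vip3 replicate 2, 0.0709 without WT replicate 1 and 0.0495 without WT replicate 2, while the log2 fold change stayed between 0.45 and 0.48.

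OTP81 (AT2G29760) is a PPR protein that acts in the editing of the intron of rps12, a chloroplast ribosomal protein gene. Its signals were 88.1 and 57.5 on the vip3 arrays and 170.7 and 183.2 on the WT arrays. Both vip3 signals lay well under the lower WT signal, and the vip3 arrays differed from each other by a ratio of 1.53. The means were 72.8 ± 21.6 in vip3 and 177 ± 8.84 in WT (SD, n = 2 each). The log2 fold change was -1.31 ± 0.29 (SE), with a 95% interval from -1.99 to -0.64 and an adjusted p of 0.0313 in limma. With any 1 array left out it was between -1.62 and -1.01, and the adjusted p was 0.0706 without vip3 replicate 1, 0.125 without vip3 replicate 2, 0.124 without WT replicate 1 and 0.145 without WT replicate 2. OTP81 thus passed only with all 4 arrays in the fit. Both calls were also lost with a constant prior variance over all probe sets (adjusted p = 0.229 for CRR21 and 0.228 for OTP81 in limma). Leaving out the 40% dimmest probe sets as well, a combination chosen after seeing the data, gave 0.0402 for CRR21 and 0.0307 for OTP81. OTP81 lay at the 42.9th percentile of mean log2 signal and escaped that filter only through its WT signals. Both its vip3 signals were below those of MEF8S in vip3, 92.7 and 94.7, a gene the filter removed. The filtered fits therefore lend no support to the call of OTP81.

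**Figure D2:**
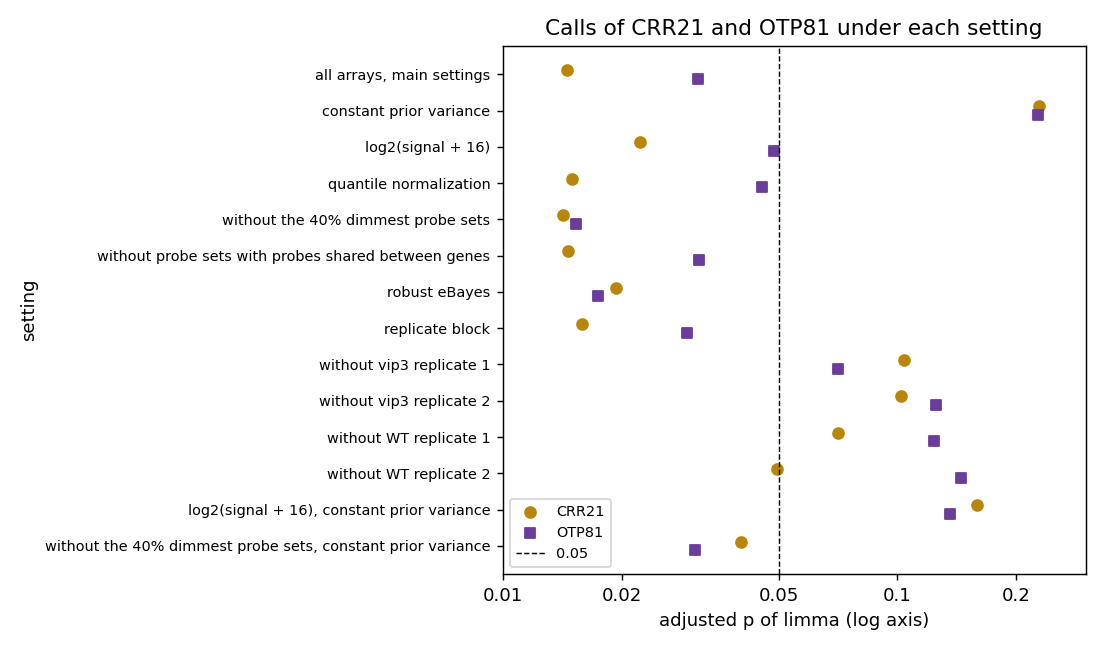
Adjusted p of limma (log axis) for CRR21 (circles) and OTP81 (squares) under the main settings and 13 alternatives, with the threshold of 0.05 dashed. Of the 13 alternatives, CRR21 stayed under the threshold in 8 and OTP81 in 7. OTP81 remained among the probe sets above the 40% dimmest only through its WT signals.

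Besides CRR21 and OTP81, 2 chloroplast editing factors had much lower signals in vip3 that did not pass. OTP85 (AT2G02980), a further editing factor of ndhD, had 37.5 and 4.7 in vip3 against 90.4 and 70.3 in WT. All vip3 signals were below all WT signals, but the vip3 arrays differed by a ratio of 7.98, and the log2 fold change of -2.59 ± 0.95 (SE) had an interval from -4.8 to -0.38 (adjusted p = 0.147). Leaving out vip3 replicate 1 gave -4.08, and leaving out vip3 replicate 2 gave -1.09. OTP80 (AT5G59200), which edits rpl23, a transcript of the large ribosomal subunit, had 3.4 and 2.8 in vip3 against 27.8 and 16 in WT. These are near the bottom of the signal range, and the mean log2 signal of OTP80 lay at the 11.4th percentile of all probe sets. Its log2 fold change was -2.77 ± 0.92 (SE) (adjusted p = 0.114), and -0.97 when 16 was added to every signal before the log was taken. The same offset gave -1.53 for OTP85, so that the size of both differences is poorly determined.

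The 4 remaining chloroplast editing factors had smaller differences. CRR22 (AT1G11290), which edits ndhB, ndhD and rpoB, had 105.7 and 101.6 in vip3 against 183.4 and 127.9 in WT, without overlap (log2 fold change -0.56 ± 0.26 SE, adjusted p = 0.241). The value was -0.3 when WT replicate 1 was left out and -0.82 when WT replicate 2 was. Its interval, from -1.17 to 0.04, took in a 2-fold decrease. CRR28 (AT1G59720), which acts on ndhB and ndhD, had 147.2 and 216.6 in vip3, a range that enclosed the WT signals of 182.3 and 198.2. OTP84 (AT3G57430), which edits ndhB, ndhF and psbZ, had 235.8 and 262.7 in vip3 against 227.6 and 269.6 in WT, and the interval of its log2 fold change, from -0.35 to 0.37, was narrow enough to leave out a 2-fold change either way. OTP86 (AT3G63370), which edits rps14, had 21.3 and 25.0 in vip3 against 16.3 and 20.7 in WT, and its interval ran from -1.24 to 1.9. As a group the 8 chloroplast editing factors had 1 member called higher, 1 called lower and 6 not called, where 4.73% of all probe sets were called higher and 5.07% lower. They had a median log2 fold change of -0.33, against a median of 0.001 over all probe sets.

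**Figure D3:**
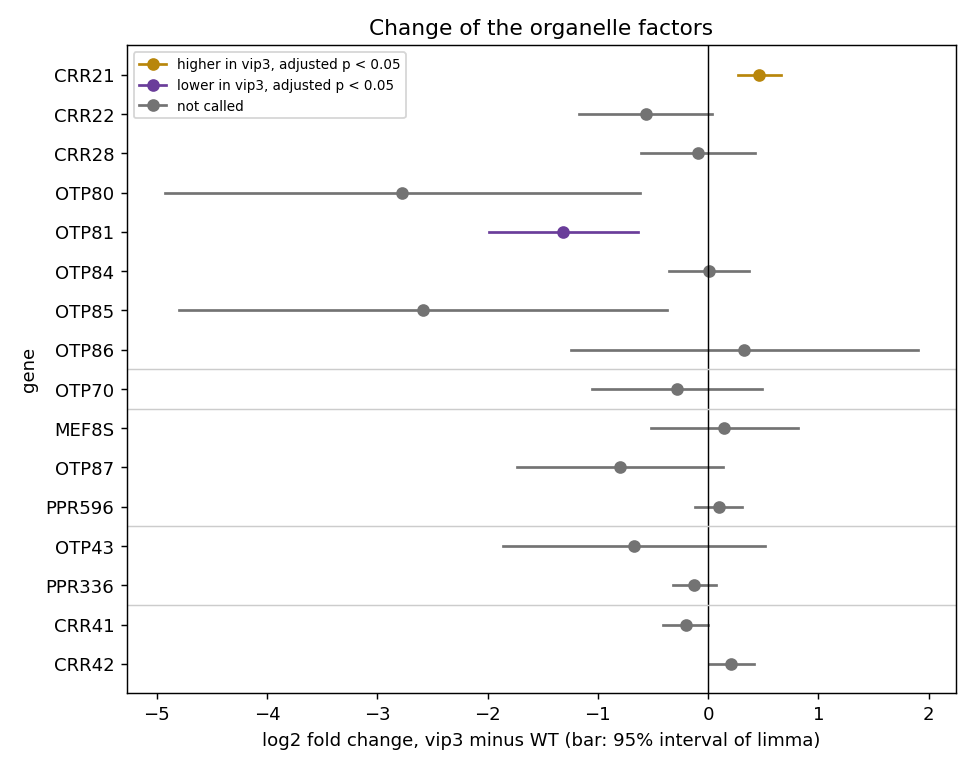
Log2 fold change, vip3 minus WT, of the 16 factors in the order of their roles, with the 95% interval of limma as a bar. The interval of CRR21 lies above 0 and that of OTP81 below 0. The widest intervals belong to OTP80 and OTP86, whose signals were low, and to OTP85, whose vip3 arrays differed by a ratio of 7.98.

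Of the members, 4 act on the same transcript, ndhD, and their values did not run together. CRR21 was higher in vip3 and OTP85, CRR22 and CRR28 had log2 fold changes of -2.59, -0.56 and -0.09 that did not pass. No difference between these genes was tested. The ndhD transcript itself had 9275 and 9505 in vip3 against 10009 and 8441 in WT, with overlapping arrays and a log2 fold change of 0.03 ± 0.1 (SE). The array gives a signal for a transcript and does not read whether its sites were edited. How well the signal follows the amount of an organelle transcript was not tested.

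OTP70 (AT4G25270), which is needed to splice the rpoC1 transcript of the plastid RNA polymerase, had 61.9 and 81.3 in vip3 against 82.9 and 89.5 in WT. The arrays did not overlap, but the log2 fold change of -0.28 ± 0.33 (SE) was smaller than its error (adjusted p = 0.686).

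None of the 5 mitochondrial factors passed in limma, where 9.8% of all probe sets did. In the main fit none had an unadjusted p under 0.05, where 23.7% of all probe sets did. So few genes cannot be told from that background. OTP87 (AT1G74600), which edits nad7 of respiratory complex I and atp1 of the ATP synthase, had 40 and 43.5 in vip3 against 76 and 69.4 in WT. These did not overlap and lay close within each genotype, yet at this signal level the error of limma was wide. The log2 fold change of -0.8 ± 0.4 (SE) had an adjusted p of 0.285. With a constant prior variance its unadjusted p in limma was 0.00606 and its adjusted p 0.198. MEF8S (AT4G32450), a close relative of the editing factor MEF8, had 92.7 and 94.7 in vip3 against 88.5 and 80.7 in WT (log2 fold change 0.15 ± 0.29 SE). PPR596 (AT1G80270), linked to partial editing of rps3, had 695.1 and 767.5 in vip3 against 662.6 and 703.7 in WT, overlapping, with an interval from -0.11 to 0.31. OTP43 (AT1G74900), which is needed for trans-splicing of the first intron of nad1, had 81.9 and 31.7 in vip3 against 73.4 and 90.0 in WT. Its log2 fold change of -0.67 rested on vip3 replicate 2, without which it was 0.01. PPR336 (AT1G61870), found with mitochondrial ribosomes, had 794.7 and 727.9 in vip3 against 846.1 and 811.2 in WT, a log2 fold change of -0.12 with an interval from -0.32 to 0.08.

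The NDH assembly factors CRR41 (AT1G51100) and CRR42 (AT5G20935) act at the protein level, on the part of the complex that faces the stroma. CRR41 had 554.1 and 526.9 in vip3 against 633.6 and 611.0 in WT, and CRR42 had 607.5 and 637.2 in vip3 against 539.4 and 535.6 in WT. Both genes were tightly measured and without overlap, and they differed in opposite directions by small amounts. The log2 fold changes were -0.2 ± 0.09 (SE) for CRR41 and 0.21 ± 0.09 for CRR42, with adjusted p-values of 0.219 and 0.197, so that neither passed.

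Over all 16 genes the arrays of the genotypes did not overlap for 12, 8 lower and 4 higher in vip3, where 52.2% of all probe sets did not overlap, 26.3% lower and 25.9% higher. With 2 arrays against 2, no permutation of the arrays of a single gene can give a two-sided p under 0.333. The median log2 fold change of the members was -0.16, against -0.01 over the 13513 probe sets with 1 named gene. By mean log2 signal over the 4 arrays, 7 members lay among the 40% dimmest probe sets and 9 above them. The 9 brighter members, which include CRR21 and OTP81, had standard errors from 0.08 to 0.29 and a median log2 fold change of -0.09. The 7 dimmer ones had standard errors from 0.29 to 0.95 and a median of -0.67. None of these 7 passed in limma, where 9.8% of all probe sets did. That median is the value of OTP43, which rested on vip3 replicate 2. No median over all of the 40% dimmest probe sets was computed for comparison.

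**Figure D4:**
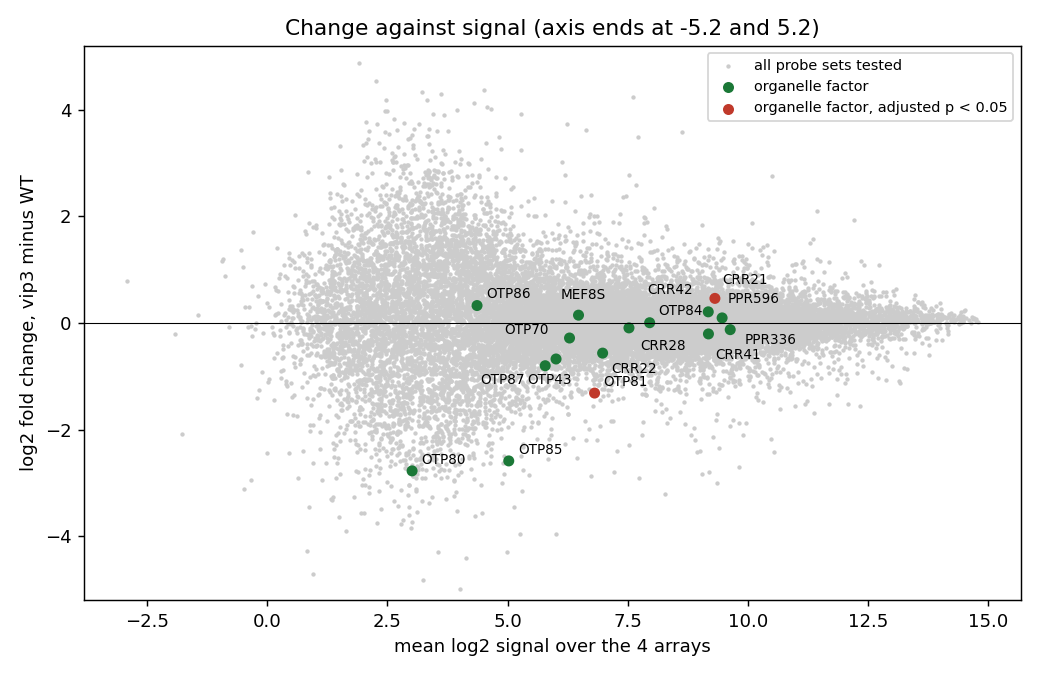
Log2 fold change, vip3 minus WT, against the mean log2 signal over the 4 arrays, for all probe sets tested (grey) and the 16 factors (green, or red where the adjusted p was under 0.05). The spread of all probe sets widens toward low signals, where OTP80 and OTP85 lie at -2.77 and -2.59; the vertical axis is limited, so the most extreme probe sets are not drawn.

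Other nuclear genes of organelle RNA metabolism were taken from a list of 177 names, of which 10 were measured by a probe set of their own. RAP (AT2G31890), needed for the maturation of chloroplast ribosomal RNA, had 1277 and 1356 in vip3 against 1104 and 1018 in WT and was 1.24-fold higher (log2 fold change 0.31 ± 0.08 SE), but only just passed in limma with an adjusted p of 0.0499. It had an adjusted p between 0.0937 and 0.226 with any 1 array left out, and of 13 alternatives 3 kept its call. LPA66, which edits the psbF transcript of photosystem II, had 253.2 and 282.6 in vip3 against 377.3 and 326.3 in WT (log2 fold change -0.39 ± 0.14 SE, adjusted p = 0.129). The intron-splicing factor CFM3A had 512 and 577.7 in vip3 against 699.8 and 621.9 in WT (log2 fold change -0.28 ± 0.11 SE, adjusted p = 0.159). These 2 did not pass and were picked out for their unadjusted p. The remaining 7 were CAF1, CFM3B, RH39, LOJ, TRZ3, TRZ4 and AT5G55580 (MTERF9), with log2 fold changes between -0.35 and 0.47, and none of them had an unadjusted p under 0.05. In all 1 of the 10 was called higher and 0 lower, where 4.73% of all probe sets were higher and 5.07% lower, and their median log2 fold change was -0.06.

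Of 30 listed organelle transcripts 21 had a probe set named for them alone, and 0 of these 21 had an adjusted p under 0.05 in limma, where 9.8% of all probe sets did. Without adjustment 6 had p under 0.05, all higher in vip3, where 11.4% of all probe sets were higher at that p. All 6 were among the 14 plastid transcripts, which had a median log2 fold change of 0.29 and 13 of which had a positive value. The genotypes did not overlap for 8 of these 14, all higher in vip3, where 52.2% of all probe sets did not overlap and 25.9% were higher. The lowest adjusted p, 0.0786, belonged to matK, the plastid intron maturase, with 14119 and 14878 in vip3 against 12240 and 11600 in WT (log2 fold change 0.28 ± 0.08 SE), and it is named here for that reason alone. Among the transcripts named above as targets of members, psbZ, rpoC1 and rpoB were among the 6 with an unadjusted p under 0.05. Signals of psbZ were 7907 and 8879 in vip3 against 7272 and 6353 in WT. Those of rpoC1 were 5112 and 5629 in vip3 against 4753 and 3666 in WT. The log2 fold changes of psbZ and rpoC1 were 0.3 ± 0.1 (SE) and 0.36 ± 0.12, with adjusted p-values of 0.102 and 0.12. A further target of CRR22, rpoB, had 381.3 and 596.6 in vip3 against 341.1 and 318.2 in WT (adjusted p = 0.15). Not among the 6 were ndhF of OTP84, nad7 of OTP87 and nad1 of OTP43. Their log2 fold changes were 0.31, -0.57 and -0.27 (adjusted p = 0.664, 0.658 and 0.772 in limma). The target of OTP86, rps14, had 272.5 and 307.6 in vip3 and 328.3 and 247.5 in WT. The transcripts named above for OTP80 and OTP81, rpl23 and rps12, were not analysed here. Nor were ndhB, atp1 and rps3, which were named above for other members. Other targets of these factors, which may be among the measured transcripts, were not considered. The 7 mitochondrial transcripts had signals of 388.6 or less on every array, all overlapped between the genotypes, and their median log2 fold change was -0.02. Plastid transcripts share promoters and precursors, so these values are not independent of each other, and no relation between a factor and its target was tested.

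**Figure D5:**
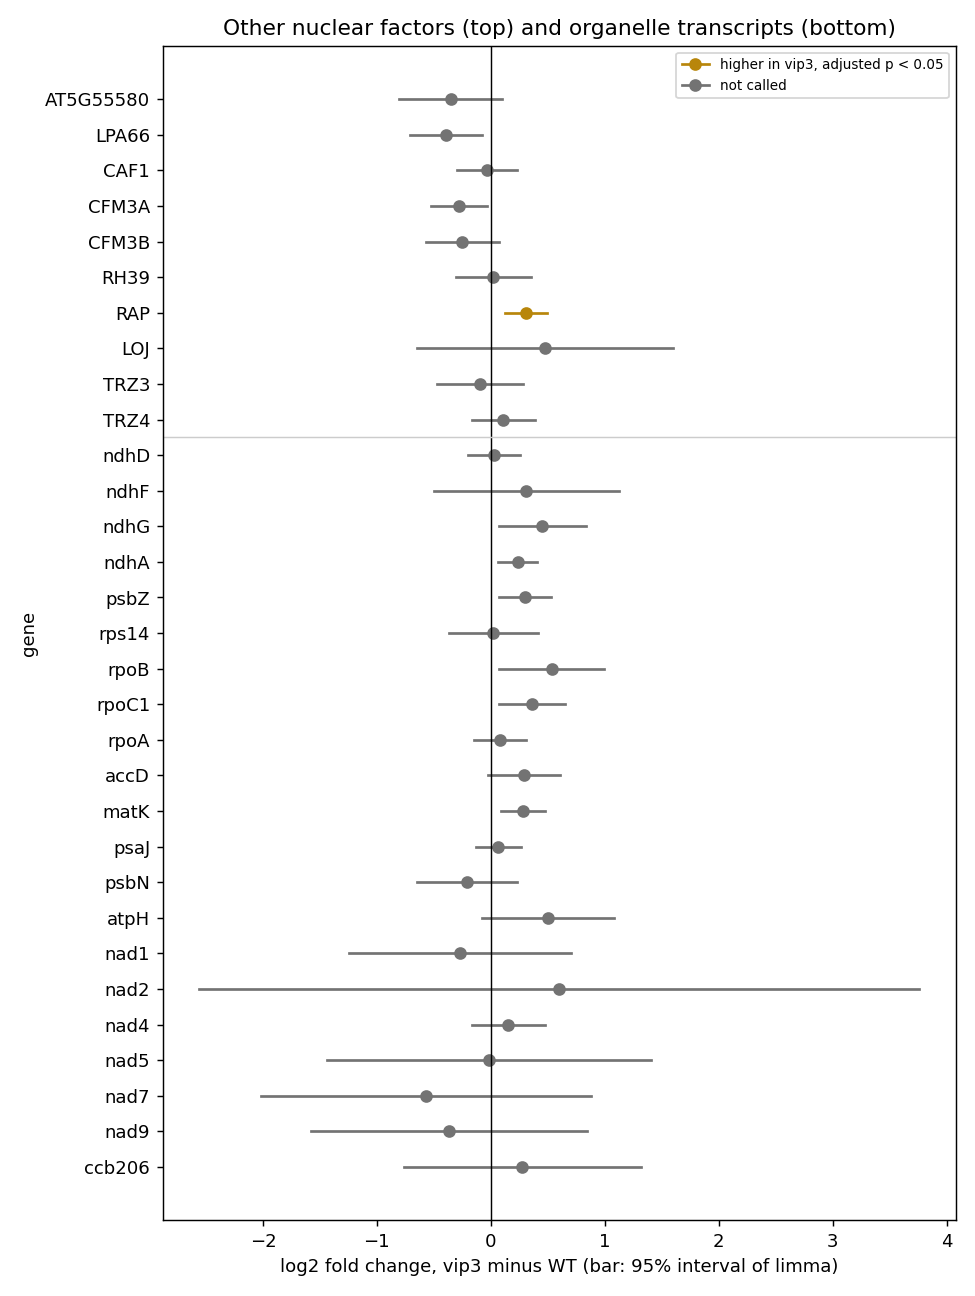
Log2 fold change, vip3 minus WT, with the 95% interval of limma, of 10 other nuclear factors of organelle RNA metabolism (above the line) and 21 organelle-encoded transcripts (below it). RAP, at 0.31, is the only one called, and 13 of the 14 plastid transcripts lie above 0.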

How the data were processed

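RNA was measured on 4 ATH1 arrays (2 vip3, 2 WT). The authors deposited linear intensity values per probe set (MAS5 signals). MAS5 subtracts background and mismatch signal, summarises each probe set and scales each array, and the sources used here give no version of it. The study's own calls used GCRMA values, not used here. The 64 control probe sets were left out. Log2 signals of the other 22746 were compared, vip3 minus WT, with limma 3.58.1 in R 4.3.3 (lmFit and eBayes, prior variance following the mean signal, 7.5 degrees of freedom). Benjamini-Hochberg adjustment was over all of them, with a threshold of 0.05. The fit was also run on arrays simulated from its own fitted model, which cannot show how well that model suits MAS5 signals. The number of arrays limits the precision. Genes were named through GEO's platform annotation and a RefSeq table of TAIR10.1, which agreed for all 16 members. Of 22810 probe sets 13513 had 1 gene symbol, 503 several and 8794 none. Coordinates were used only to find the genes next to each member.

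The members, roles and lists were chosen with earlier results of these data known. Full values were planned for called members, for the brightest and the most different member of each role, and for up to 8 members with an unadjusted p under 0.05 and no overlap; the rest were added so that all 16 are accounted for. Listed mitochondrial genes were not read from plastid genes of the same name. Planned sequence features were not computed.

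Same-numbered arrays deviated from their genotype means with a correlation of -0.04, and arrays were therefore treated as unpaired. Alternatives were a constant prior variance, log2 of the signal plus 16, quantile normalization, removal of the 40% dimmest or of shared probe sets, robust eBayes, a replicate block, removal of each array, the study's thresholds, updated symbols and all probe sets of a member. Combinations of 2 settings were chosen after seeing the data.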

Additional observations from a re-analysis of the deposited data

How the results depend on the processing

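Counts are probe sets called in limma. With a constant prior variance 0 of the 16 factors and 0 of all probe sets passed, although 4 and 3798 had an unadjusted p under 0.05, and with log2 of the signal plus 16 as well both counts were again 0 (5 and 4312 unadjusted). Without the 40% dimmest probe sets and with a constant prior variance, 2 factors passed of the 9 left. Among them was OTP81, which escaped that filter only through its WT signals. The study's thresholds gave 0 factors and 354 probe sets. With any 1 array left out, between 0 and 1 factor and between 442 and 1332 probe sets passed. The replicate block left 2 factors and 2339 probe sets called. It changed no call of a factor but ended that of RAP (adjusted p = 0.0572), as did log2 of the signal plus 16 (0.0638), robust eBayes (0.0584), a constant prior variance and the study's thresholds, so that 0 of the 10 other nuclear genes passed in each of these, in both combinations of 2 settings and without any 1 array (range 0 to 0). For the 21 organelle transcripts the count was 2 without the 40% dimmest probe sets (matK and ndhA), 1 with robust eBayes (matK), 1 with the replicate block (ndhG) and from 0 to 1 over the removal of each array. The median log2 fold change of the factors was between -0.19 and -0.09 under every setting run. The log2 fold change of CRR28 was 0.19 without vip3 replicate 1, and that of OTP84 was -0.07 without vip3 replicate 2 and -0.12 without WT replicate 1; neither passed in any setting. Updated symbols and every probe set of a member gave the same 16 probe sets as the main rule. Their 2 calls were thus fixed in advance and say nothing about processing. The cause of the changes was not tested.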

Other observations

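The genes next to the 16 factors in the RefSeq gene order were also read where a probe set was named for them alone. Of 19 such neighbours 2 had an adjusted p under 0.05 in limma, AT1G51090 beside CRR41 (log2 fold change -0.82, adjusted p = 0.0417) and AT1G11280 beside CRR22 (-0.52, adjusted p = 0.0238), while the factors they flank did not pass. Of all probe sets 9.8% were called, so the neighbours' count is near the background. The measured neighbours of the called genes did not pass. Beside OTP81 these were UGT71C1, a glycosyltransferase gene, at -2.3 (adjusted p = 0.225) and AT2G29770 at -0.4 (0.873), and beside CRR21 it was AT5G55750 at 1.71 (0.469). Signals and standard errors of the neighbours are not given here, and no relation between a factor and its neighbour was tested. This comparison was chosen after the data were seen.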
